A study of Mus musculus with 13 samples.

Results

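Livers of obese mice given the SGLT2 inhibitor canagliflozin on a high fat diet (CANA) were compared with livers of mice that stayed on the diet without it (HFD), gene by gene over all genes that passed a signal filter. All arrays whose labels name one of these 2 groups were taken, which gave 4 CANA and 4 HFD arrays of the 13 in the series. The other 5 arrays are of mice held to the weight of the treated group by caloric restriction (CR), and their values stand beside some results. All mice were male C57Bl/6J, 6 weeks old when a 60% fat diet began. They ate it for 4 weeks before the groups were formed, so the controls were obese too. HFD mice continued on it for another 4 weeks. CANA mice ate the same diet with canagliflozin at 25 to 30 mg/kg, and CR mice had 15 to 30% fewer calories. No group on a standard diet was analysed here. The measured material was total RNA of whole liver, and the labels do not say whether animals were pooled, so the p-values measure only the spread between these samples.

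SGLT2 is the cotransporter that recovers filtered glucose in the kidney tubule, and its inhibition sends glucose out with the urine. In the liver, insulin represses Igfbp1 and the genes of glucose production and raises those of fat and glycogen synthesis. When insulin falls, as in fasting, FoxO factors and the fatty acid sensor PPAR-alpha raise genes of glucose output, fat oxidation and the hormone Fgf21. The comparison asks which of these programmes, and which other parts of the liver's expression, differed under the drug.

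Values are log2 signals from the robust multi-array average (RMA), so a difference of 1 is a doubling. Levels of different genes are not compared, since each comes from its own probes. Of 22180 genes measured by probe sets with a single gene symbol, the 13308 with the higher mean signals were tested. Passing this filter does not show that a gene is expressed in liver, and 78 olfactory receptor genes passed it. A gene was called at a limma adjusted p (Benjamini-Hochberg over all tested genes) under 0.05. Array medians ran from 4.07 to 4.13. On the first principal component of the 8 arrays, with 26.9% of the variance, CANA lay at -9.61, 6.38, 18.9 and 12.5 and HFD at -19.1, -15.0, 2.21 and 3.75 (replicates 1 to 4). The groups overlapped there, but CANA lay above HFD within replicates 1 and 2 and within replicates 3 and 4. On the second component (18.9%), CANA lay at 11.5, 11.2, 8.13 and 0.97 and HFD at 1.75, -0.35, -16.4 and -16.8. The labels carry a number for each array, called a serial number here, and do not say what it stands for. Replicates 1 and 2 of both groups have numbers from 1 to 8, and replicates 3 and 4 numbers from 9 to 14. The cut into these 2 sets, between 8 and 9, was chosen here. The differences within these sets are given beside the main genes.

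The livers differed in a small number of genes by a large amount and in most genes by little. The median difference over the 13308 genes was -0.01, 46.1% of them lay above 0, and their 1st and 99th percentiles were -0.48 and 0.51. The median size of a difference was 0.0951, beside a median standard error of 0.121. At an unadjusted limma p under 0.05 lay 1174 genes, 483 higher and 691 lower, where about 665 would fall if no gene differed. Differences of at least 0.5 were seen in 138 genes on the high side and 113 on the low side, and those of at least 1 in 26 and 17. Only 4 genes reached 2 on the high side, Cyp4a14, Igfbp1, Lepr and Cyp4a31, and none did on the low side.

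In all, 22 genes were called, which is 0.165% of those tested. Of these, 17 were higher under canagliflozin (0.128%) and 5 lower (0.0376%). At an adjusted p under 0.10 there were 36 higher (0.271%) and 20 lower (0.15%). Without regard to the test, all 4 CANA arrays lay above all 4 HFD arrays in 284 genes (2.13%) and below them in 368 (2.77%), so genes with non-overlapping groups were more often lower while called genes were more often higher. All 22 called genes were among these. By quintile of the mean signal, from the dimmest to the brightest, 0, 2, 2, 7 and 6 genes were called higher and 0, 1, 0, 2 and 2 lower. Without CANA replicates 1, 2, 3 and 4 in turn, 38, 5, 3 and 11 genes were called, and without the HFD replicates 10, 6, 5 and 7. The calls of Cyp4a31, Lepr and Fasn held in each of these 8 fits, that of Ctcflos in 6, of Tbc1d8 in 5 and of Fh1 in 4. Each of the others held in at most 2, Brap and Rtkn in none. In a fit to the 8 compared arrays alone, 12 of the 22 calls held, and 10 were lost at adjusted p from 0.0501 to 0.128. Those lost were Ppp1r3g, Ppp1r3c, Csrp2, Carmil1, Tmed5, Mir466h, Brap, Slc25a22, Rtkn and 9430037G07Rik. With the serial-number set as a block all 22 held. A fit to the arrays numbered 1 to 8 called 2 genes (738 at an unadjusted limma p under 0.05), and one to those numbered 9 to 14 called 0 (1290).

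**Figure D1:**
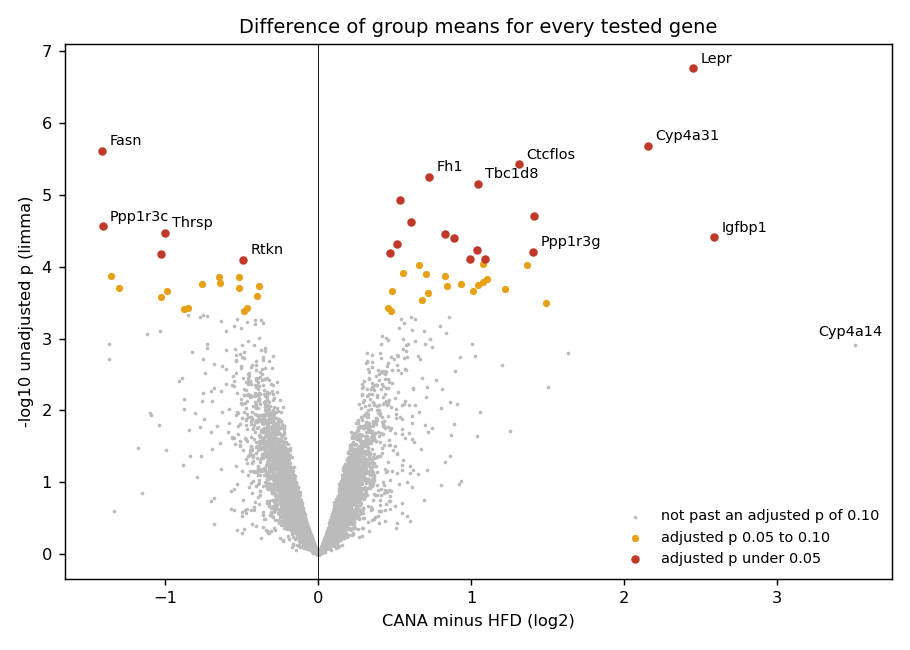
Each point is 1 of the 13308 tested genes, with the CANA minus HFD difference (log2) on the x axis and the -log10 unadjusted limma p on the y axis. The 22 genes with an adjusted p under 0.05 are red and the 34 from 0.05 to 0.10 orange. Lepr stands highest, and Cyp4a14 lies farthest to the right without passing, with widely spread arrays.

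The promoters of 4 called genes are shown because each holds a short sequence known from promoters that respond to insulin or glucose. The windows run from 250 bases before to 50 after the start of transcription in RefSeq (GRCm38.p6), 5′ to 3′ on the strand of the gene. In Igfbp1, Lepr and Thrsp the capitals mark CAAAACA, the core of the insulin response sequence known from the Igfbp1 promoter, a search that was added after the data were seen. In Ppp1r3c they mark the E-box CACGTG. The windows are Igfbp1 at chr11:7197537-7197836, plus strand, Lepr at chr4:101717656-101717955, plus strand, Thrsp at chr7:97417501-97417800, minus strand, and Ppp1r3c at chr19:36736555-36736854, minus strand.
Igfbp1: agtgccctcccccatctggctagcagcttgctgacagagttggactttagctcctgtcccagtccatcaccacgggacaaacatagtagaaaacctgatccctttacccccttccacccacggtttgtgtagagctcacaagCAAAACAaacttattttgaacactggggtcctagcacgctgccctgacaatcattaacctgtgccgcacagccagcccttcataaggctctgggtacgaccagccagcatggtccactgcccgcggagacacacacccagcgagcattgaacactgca
Lepr: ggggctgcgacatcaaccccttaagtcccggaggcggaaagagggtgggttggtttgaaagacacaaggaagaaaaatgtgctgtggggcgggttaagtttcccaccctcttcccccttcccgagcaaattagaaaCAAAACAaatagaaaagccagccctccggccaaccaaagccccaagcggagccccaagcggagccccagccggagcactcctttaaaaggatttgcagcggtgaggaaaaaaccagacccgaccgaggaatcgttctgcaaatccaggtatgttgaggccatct
Thrsp: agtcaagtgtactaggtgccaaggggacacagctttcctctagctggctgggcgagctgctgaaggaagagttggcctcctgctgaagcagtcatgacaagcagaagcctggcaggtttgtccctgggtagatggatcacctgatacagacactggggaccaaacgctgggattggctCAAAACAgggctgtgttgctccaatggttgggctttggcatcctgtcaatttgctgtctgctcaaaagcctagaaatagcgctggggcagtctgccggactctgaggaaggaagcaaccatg
Ppp1r3c: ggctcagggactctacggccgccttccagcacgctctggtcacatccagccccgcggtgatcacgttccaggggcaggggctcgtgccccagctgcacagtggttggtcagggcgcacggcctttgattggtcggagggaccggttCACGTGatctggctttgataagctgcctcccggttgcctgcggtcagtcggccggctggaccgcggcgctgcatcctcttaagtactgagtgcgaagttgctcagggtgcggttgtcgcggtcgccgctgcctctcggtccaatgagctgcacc

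Counted from the start site, CAAAACA lay at -108 to -102 in Igfbp1, at -114 to -108 in the second of 2 Lepr windows and at -72 to -66 in Thrsp, and CACGTG at -104 to -99 in Ppp1r3c. Igfbp1 and Lepr were called higher and Thrsp lower. CAAAACA was found, on either strand, in 5.40% of the 10365 tested genes with a window, in 2 of the 11 called higher and in 1 of the 5 called lower. CACGTG was found in 11.4% of the same genes, in 0 of the 11 and in 1 of the 5. The forkhead sequence GTAAACA (3.04% of all), the cyclic AMP response element TGACGTCA (3.27%), the sterol element TCACNCCAC (1.49%) and a direct repeat of AGGTCA with 1 base between (0.0289%) were in none of these 16. A match describes the letters only, and the lack of one says nothing of the factor. The match in Igfbp1 was known in advance, since CAAAACA is known from that promoter. Its count among genes called higher therefore gives no support, and no enrichment was tested.

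Igfbp1, Lepr and Sik1, genes tied to insulin, leptin and glucagon signalling, rose under canagliflozin. Igfbp1 encodes a secreted protein that binds insulin-like growth factors and is repressed by insulin. It lay at 10.39, 11.36, 12.49 and 10.68 in CANA and at 8.27, 8.92, 8.65 and 8.72 in HFD, replicates 1 to 4. Every CANA array stood above every HFD array, with replicate 3 the highest, and the mean was 6.02-fold higher (difference 2.59, SE 0.46, limma adjusted p = 0.0383). Within the serial-number sets the difference was 2.28 and 2.90. Igfbp1 rose, but its call held in 1 of the 8 fits without an array, with an adjusted p of up to 0.123. Lepr, the leptin receptor, lay at 6.52, 7.13, 7.19 and 5.97 in CANA and at 4.35, 3.94, 4.11 and 4.60 in HFD. The lowest CANA array was above the highest HFD array by more than the spread within HFD (difference 2.45, SE 0.28, limma adjusted p = 0.00235), and the sets gave 2.68 and 2.22. Leprot, the neighbouring gene of an endosomal protein, did not pass (difference 0.05, SE 0.10, limma adjusted p = 0.948, 95% interval -0.17 to 0.27), and its arrays overlapped. Sik1, a salt-inducible kinase of the glucagon and cyclic AMP response, lay at 7.55, 8.22, 8.98 and 8.48 in CANA against 6.94, 7.00, 6.73 and 6.93 in HFD. The CANA arrays were spread widely and the HFD arrays lay close together (difference 1.41, SE 0.23, limma adjusted p = 0.0326; 0.92 and 1.90 within the sets).

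Ppp1r3g and Ppp1r3c, which are glycogen-targeting subunits of protein phosphatase 1, were called in opposite directions. These proteins bring the phosphatase to glycogen, where it activates glycogen synthase. Ppp1r3g rose, from 4.41, 4.74, 4.63 and 4.54 in the HFD arrays to 5.47, 5.57, 6.97 and 5.92 in the CANA arrays, with CANA replicate 3 far above the rest (difference 1.41, SE 0.26, limma adjusted p = 0.0466). Ppp1r3c fell, from 6.47, 5.88, 7.18 and 6.95 to 5.47, 5.13, 4.81 and 5.44 (difference -1.41, SE 0.24, limma adjusted p = 0.0369). The HFD arrays of Ppp1r3c were the more spread, and within the sets it differed by -0.88 and -1.94. Neither passed in a fit to the 8 compared arrays alone (limma adjusted p = 0.0836 for Ppp1r3g and 0.0669 for Ppp1r3c). In CR the Ppp1r3c arrays were at 7.46, 7.00, 7.19, 7.16 and 7.81, so the CR mean lay above that of HFD (CR minus HFD 0.70, SE 0.23, no CR gene being called). Among the 17 tested glycogen genes, 13 lay below 0, with a median of -0.14 against -0.01 over all genes. The median turned within the serial-number sets, at 0.09 in numbers 1 to 8 and -0.23 in 9 to 14.

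Fasn and Thrsp of fat synthesis fell, and Cyp4a31 and Slc22a5 of fat handling rose. Fasn, the fatty acid synthase, lay at 9.28, 8.71, 8.31 and 8.84 in CANA and at 10.00, 9.79, 10.49 and 10.51 in HFD. The groups did not overlap, and the HFD arrays of replicates 3 and 4 were the highest (difference -1.41, SE 0.20, limma adjusted p = 0.0109; -0.90 and -1.93 within the sets). Thrsp, a nuclear protein that promotes lipogenesis, lay at 10.33, 10.35, 10.15 and 10.81 and 11.31, 11.18, 11.52 and 11.63, again with no overlap. Its means were 10.41 ± 0.28 and 11.41 ± 0.20 (SD, n = 4 each; SE of the difference 0.18, limma adjusted p = 0.0383). Cyp4a31, a fatty acid omega-hydroxylase of the P450 4A family and a PPAR-alpha target, rose from 5.42, 5.96, 6.54 and 4.90 to 7.61, 7.57, 8.60 and 7.66 (difference 2.15, SE 0.30, limma adjusted p = 0.0109). Its relatives are near-identical and may share probes, so the value is uncertain between them. Its neighbour Cyp4a14 had the largest difference of all tested genes, 3.51, and no call (SE 0.89, adjusted p = 0.166). The Cyp4a14 arrays lay at 9.89, 10.69, 12.03 and 10.78 in CANA and 5.40, 6.71, 8.94 and 8.31 in HFD, so the groups did not overlap while the HFD arrays were widely spread. Slc22a5, the carnitine transporter OCTN2, rose from 6.63, 6.48, 6.87 and 6.91 to 7.44, 7.71, 7.76 and 7.53 (difference 0.89, SE 0.16, limma adjusted p = 0.0383).

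Mitochondrial and NAD-linked genes were also called. Fh1, which turns fumarate into malate in the citric acid cycle, lay at 10.57, 10.90, 10.96 and 10.77 in CANA and 10.22, 10.05, 9.95 and 10.10 in HFD, a shift larger than the spread of either group (difference 0.72, SE 0.11, limma adjusted p = 0.0151; 0.61 and 0.84 within the sets). Slc25a22, a mitochondrial glutamate carrier, lay at 10.01, 10.25, 10.52 and 10.38 against 8.97, 8.82, 9.75 and 9.65. Its HFD arrays fell into 2 low (replicates 1 and 2) and 2 higher ones (3 and 4), and the difference was 1.23 and 0.75 within the sets (difference 0.99, SE 0.19, limma adjusted p = 0.0488). Nnmt, which methylates nicotinamide, rose from 7.40, 7.14, 7.15 and 7.30 to 7.74, 8.39, 8.09 and 8.10 (difference 0.83, SE 0.15, limma adjusted p = 0.0383).

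The remaining named calls have a less settled place in liver metabolism. Tbc1d8, a GTPase-activating protein of the TBC family, rose from 7.36, 6.94, 7.18 and 7.24 to 8.25, 8.04, 8.47 and 8.13 (difference 1.04, SE 0.16, limma adjusted p = 0.0157). Csrp2, a LIM-domain protein, varied little within either group, with 6.57, 6.62, 6.73 and 6.66 in CANA and 6.18, 6.16, 6.04 and 6.08 in HFD (difference 0.54, SE 0.09, limma adjusted p = 0.0224). Smaller rises were those of Carmil1, an actin-capping regulator (0.60, adjusted p = 0.0351), Tmed5, a cargo receptor of the early secretory path (0.51, adjusted p = 0.0426), and Brap, a BRCA1-associated ubiquitin ligase (0.47, adjusted p = 0.0466). Rtkn fell from 5.49, 5.33, 5.28 and 5.49 to 4.80, 5.02, 4.88 and 4.93 (-0.49, adjusted p = 0.0488). The microRNA gene Mir466h rose (1.04, adjusted p = 0.0466). It belongs to a large family of near-identical copies, so its signal is uncertain between them. The other 2 calls were predicted loci, named here after their values were seen. 9430037G07Rik was higher (1.09, adjusted p = 0.0488), and Gm11437, which overlaps the acetyl-CoA carboxylase gene Acaca, was lower (-1.03, adjusted p = 0.0466).

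**Figure D2:**
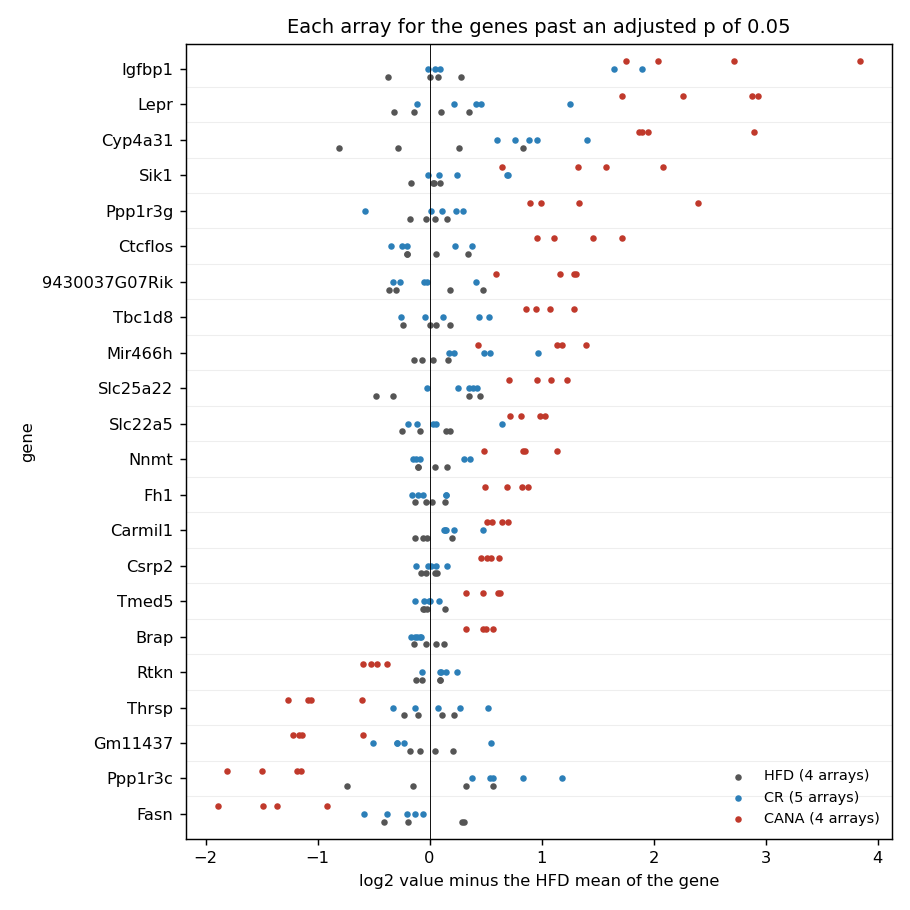
Points are single arrays of the 22 called genes, given as the log2 value minus the HFD mean of the gene, for HFD (grey, 4 arrays), CR (blue, 5) and CANA (red, 4). No CANA point of a gene overlaps its HFD points. CR arrays of Igfbp1 split, with 2 of 5 well above the rest, and these 2 carry the later serial numbers.

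Between adjusted p 0.05 and 0.10 lay 34 genes, 19 higher and 15 lower. None of them was called, but with the serial-number set as a block 19 of the 34 were, among them Ppargc1a (limma adjusted p = 0.00593), Got1 (0.00747), Scd1 (0.0182), Slc7a2 (0.038), Fgf21 (0.0395) and Pnpla2 (0.0451). Of all the fits run, that one called the most genes. Of the same 34 genes, 3 passed in the fit to the 8 compared arrays alone. With array weights, without a filter on dim genes or without CANA replicate 3, 0 passed. The adjusted p-values that follow are from the fit without the block. Ppargc1a, a coactivator of glucose production and mitochondrial genes, lay at 7.13, 7.52, 8.52 and 8.01 in CANA and 6.08, 6.60, 6.51 and 6.53 in HFD (1.37, adjusted p = 0.0514). Fgf21, the hormone of fasting, lay at 6.23, 6.99, 7.36 and 6.90 against 5.77, 5.29, 6.02 and 5.52 (1.22, adjusted p = 0.0653). Got1, the cytosolic aspartate aminotransferase, had HFD arrays close together, at 11.02, 10.97, 11.02 and 11.09, and CANA arrays at 11.70, 12.15, 12.50 and 12.04 (1.07, adjusted p = 0.0514). Irs2, an insulin receptor substrate, differed by 1.04 (adjusted p = 0.0636), Pnpla2, the adipose triglyceride lipase, by 0.70 (adjusted p = 0.0609), and Slc7a2, a cationic amino acid transporter, by 0.66 (adjusted p = 0.0514). On the low side were Scd1, the stearoyl-CoA desaturase (11.04, 10.63, 11.55 and 11.34 in CANA and 12.12, 12.84, 12.39 and 12.64 in HFD; -1.36, adjusted p = 0.0609), and Angptl8, an insulin-induced inhibitor of lipoprotein lipase (-1.30, adjusted p = 0.0643). Slc10a2, the ileal-type bile acid transporter (-1.03, adjusted p = 0.0737), Akr1c20, an aldo-keto reductase (-0.76, adjusted p = 0.0636), Hsd3b3, a steroid dehydrogenase (-0.52, adjusted p = 0.0643), and Leap2, the antagonist of the ghrelin receptor (-0.65, adjusted p = 0.0609), followed. Mid1ip1, a partner of Thrsp, differed by -0.87, whereas 0.23 and 0.04 were found with its remaining probe sets. The other named genes of this range were Mir344d-2, Fam222a, Rab30, Fbf1, Gpcpd1, Sorbs3 and Psmd9 on the high side and Olfr331, Trp53cor1 and E2f1 on the low side, with differences from 0.46 to 1.49 and from -0.99 to -0.49.

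Most functional groups differed as a whole by very little. Of 65 gene lists with at least 5 tested members, 50 had a median within 0.1 of 0, and the medians ran from -0.39 to 0.29. When 1 array at a time was left out, 35 of the 65 medians kept their sign. Within the serial-number sets 37 of the 65 had opposite signs in the 2 sets, the antioxidant, zinc finger and Kupffer cell lists among them. Fatty acid synthesis, cholesterol synthesis, PPAR-alpha targets, mitochondrial fatty acid oxidation, gluconeogenesis and ER genes kept theirs. The lists overlap, and they hold 1730 tested genes, 13 of the 22 called genes among them. The counts and medians below describe the members and stand beside those of all genes, with a median of -0.01 and 2.13% and 2.77% non-overlapping on the high and low sides.

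In fatty acid synthesis, 16 of 19 tested genes lay below 0 (median -0.39), Fasn and Thrsp being called, and 6 (31.6%) had all CANA arrays below all HFD arrays. Averaged over the list as deviations from each gene's mean, the CANA arrays lay at -0.22, -0.40, -0.22 and -0.09 and the HFD arrays at 0.03, 0.10, 0.41 and 0.39. The groups do not overlap, and replicates 3 and 4 of HFD, which carry the later serial numbers, are the highest. Srebf1, which encodes the lipogenic transcription factor SREBP-1, differed by -0.85 (adjusted p = 0.108) and Acaca by -0.53 (adjusted p = 0.11). Cholesterol synthesis had a median of -0.32 with 15 of 19 genes below 0, but its array means, -0.42, -0.51, -0.16 and 0.45 in CANA and -0.50, 0.03, 0.66 and 0.46 in HFD, overlapped widely. They were higher in replicates 3 and 4 of both groups, which carry the later serial numbers, and 1 of its genes (5.26%) did not overlap. In triglyceride and phospholipid synthesis, 11 of 19 genes lay below 0 (median -0.01). The highest member was Lpin2, a phosphatidate phosphatase (0.53, adjusted p = 0.126).

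On the oxidation side, 25 of 29 PPAR-alpha targets lay above 0 (median 0.29), with Cyp4a31 called and 6 (20.7%) non-overlapping on the high side. The array means of this list were -0.0036, 0.35, 0.59 and 0.18 in CANA and -0.62, -0.44, 0.11 and -0.18 in HFD, and HFD replicate 3 lay above CANA replicate 1. In mitochondrial fatty acid oxidation, 20 of 21 genes lay above 0 (median 0.15), Slc22a5 being the called one. Its array means did not overlap, with 0.06, 0.17, 0.17 and -0.01 in CANA and -0.18, -0.10, -0.04 and -0.08 in HFD. Cpt1a, the gatekeeper of long-chain fatty acid entry, differed by 0.29 (adjusted p = 0.572). The 22 peroxisomal genes were balanced, 11 on either side of 0, and so were the 24 of lipoprotein assembly, 12 on either side with none non-overlapping.

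Among the 65 lists, glucose production had the largest share of non-overlapping members on the high side, 7 of 19 (36.8%). The median was 0.20. Sik1, the called member, is a signalling kinase of the glucagon response and not an enzyme that makes glucose. Array means lay at -0.02, 0.21, 0.33 and 0.15 in CANA and at -0.23, -0.25, -0.10 and -0.08 in HFD. Every CANA array was above every HFD array, but CANA replicate 1 and HFD replicate 4 lay close together. These means count Sik1, the member with the largest difference (1.41), and means without it were not taken. G6pc, the glucose-6-phosphatase, lay at 11.39, 11.81, 12.12 and 12.06 in CANA and 11.38, 10.91, 11.29 and 11.26 in HFD, with no call (0.63, adjusted p = 0.16; 0.0451 with the serial-number set as a block). Pdk4, the kinase that shuts pyruvate dehydrogenase, had one CANA array far above the others, with 6.09, 6.58, 8.90 and 6.04 against 5.16, 5.65, 5.56 and 5.24 (1.50, adjusted p = 0.265), and without that array, replicate 3, the difference was 0.83. The 14 genes of glycolysis and fructose breakdown had 11 below 0 (median -0.15) and none without overlap, with Pklr, the liver pyruvate kinase, at -0.73 (adjusted p = 0.166, or 0.0395 with that block). The block was the only 1 of 13 other settings, leaving out an array aside, in which G6pc or Pklr passed. Without 1 array, G6pc passed in 1 of the 8 fits and Pklr in 0. In the insulin and FoxO list, Igfbp1 and Ppp1r3g were called, 6 of 23 genes (26.1%) did not overlap on the high side, and the median was 0.02, so the large members stood above a list centred near 0. Of the 12 genes of the urea cycle list 4 (33.3%) were non-overlapping and higher, with Slc25a15, the ornithine carrier, at 0.41 (adjusted p = 0.147). Its called member, Slc25a22, is a mitochondrial glutamate carrier, also counted among the Slc25 carriers. The list median was 0.07 and ran from -0.02 to 0.11 when 1 array was left out. Within the serial-number sets it was 0.16 and -0.05, and 1 CANA array mean lay above all HFD means.

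Several lists of mitochondrial genes outside fat oxidation lay slightly above 0. On that side were 26 of 33 subunits and assembly factors of complex I (median 0.08), 49 of 70 mitochondrial ribosomal proteins (0.05) and 26 of 38 Slc25 carriers (0.07). In complexes III to V of the respiratory chain 18 of 32 lay above 0 (median 0.03), and that median ran from -0.0087 to 0.058 when 1 array was left out. No complex I gene was called or had non-overlapping groups, and the array means of complex I overlapped, at 0.12, 0.10, -0.09 and 0.04 in CANA and 0.05, 0.03, -0.15 and -0.11 in HFD. Among the carriers 7 (18.4%) were non-overlapping and higher. Besides Slc25a22 these included Slc25a33, a pyrimidine nucleotide carrier (0.52, adjusted p = 0.192). The 55 cytosolic ribosomal protein genes had a median of 0.01 and no member without overlap.

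Genes of protein folding in the endoplasmic reticulum (ER) lay low. Of 31 tested, 28 were below 0 (median -0.24) and 10 (32.3%) did not overlap on the low side, while none was called. The CANA arrays averaged -0.0043, -0.11, -0.36 and -0.08 and the HFD arrays 0.22, 0.14, 0.12 and 0.07. All CANA arrays lay below all HFD arrays, and the CR arrays spread over both, at -0.18, 0.25, 0.01, 0.12 and -0.37. Derl3, a channel component of ER-associated degradation, lay at 6.00, 5.61, 4.76 and 5.58 against 6.53, 6.90, 6.81 and 7.18 (-1.37, adjusted p = 0.166), and Xbp1, the factor that drives ER folding capacity, differed by -0.47 (adjusted p = 0.274). Dnajb9, a co-chaperone, was on the other side (0.73, adjusted p = 0.156). Cytosolic heat shock proteins (13 genes, median -0.05) and the proteasome with its assembly factors (48, -0.02) lay near 0. The 33 autophagy and lysosome genes had a median of -0.02, with Map1lc3b, the LC3B protein of autophagosomes, at 0.56 (adjusted p = 0.115) and Ctsl, cathepsin L, at 0.44 (adjusted p = 0.153).

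Drug-metabolising P450 genes of families 1 to 3 had 25 of 38 members below 0 (median -0.12), 5 of them (13.2%) without overlap on the low side, none called. The leading ones were Cyp2c55 (-0.75, adjusted p = 0.193) and Cyp2c70, which makes muricholic acid in mice (-0.68, adjusted p = 0.266). Their family members resemble each other closely, so single values are uncertain. Interferon-stimulated genes had 17 of 22 below 0 (median -0.11). Their array means were -0.10, -0.01, -0.07 and -0.04 in CANA and 0.02, 0.10, 0.02 and 0.09 in HFD, so the groups were apart by little, and the CR median was -0.20. Hmox1, the heme oxygenase, was the one antioxidant gene without overlap (0.74, adjusted p = 0.171), in a list where 16 of 21 lay below 0. Core clock genes were balanced, with 9 of 18 on either side, and Per3 lay at -0.40 (adjusted p = 0.245).

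Amino acid, bile acid and one-carbon genes differed in single members more than as lists. Of 38 genes of amino acid breakdown, 27 lay above 0 (median 0.09) and 5 (13.2%) were non-overlapping and higher, Got1 among them. The 21 amino acid transporters had a median of -0.03, with Slc38a2, a glutamine transporter, on the high side (0.65, adjusted p = 0.192) and Slc6a6, the taurine transporter, on the low side (-0.35, adjusted p = 0.286), neither called. In bile acid metabolism (21 genes, median -0.04), Cyp8b1, the sterol 12-alpha-hydroxylase that sets the share of cholic acid, lay at 10.46, 11.03, 11.13 and 10.62 in CANA and 9.24, 10.02, 10.43 and 10.31 in HFD, without overlap or call (0.81, adjusted p = 0.267). Abcb4, the phospholipid exporter of bile, did likewise (0.35, adjusted p = 0.192), whereas the arrays of the organic anion transporter Slco1a4 overlapped (1.04, adjusted p = 0.454). Methyl group and NAD genes had Nnmt called higher and 3 of 24 (12.5%) without overlap on the low side. These were Shmt1, a serine hydroxymethyltransferase (-0.32, adjusted p = 0.195), Aox1, the aldehyde oxidase (-0.41, adjusted p = 0.248), and Pemt, which methylates phosphatidylethanolamine (-0.25, adjusted p = 0.311).

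Endocrine and secreted genes were also mostly near 0. Among 22 secreted hormone genes 11 lay on either side of 0, with Fgf21 and Angptl8 at the ends and Lect2, a hepatokine, at -0.39 (adjusted p = 0.252). In the growth hormone list (16 genes, median -0.04), Igfbp1 was called, Ghr, the growth hormone receptor, lay at -0.25 (adjusted p = 0.418) and Igfbp2 at 0.50 (adjusted p = 0.446). Without HFD replicate 3, which was low, Igfbp2 lay at 0.28. Male-biased liver genes had 12 of 16 below 0 (median -0.12) but were split, with Elovl3, a fatty acid elongase, at 1.20 (adjusted p = 0.21, or 0.0496 with the serial-number set as a block) and C4a, the sex-limited complement protein, at -1.10 (adjusted p = 0.365). For Elovl3 that block was the only 1 of 13 other settings in which it passed. The CR median of the male-biased list was -0.24. The 34 nuclear receptors had a median of -0.01, with the glucocorticoid receptor gene Nr3c1 at -0.26 (adjusted p = 0.361) and the thyroid hormone receptor gene Thrb at -0.31 (adjusted p = 0.386). Complement (21 genes, -0.08) and coagulation (21, -0.04) had no called gene, with Pros1, the anticoagulant protein S, at 0.50 (adjusted p = 0.193). Of 19 cell cycle genes, Ccnd1, cyclin D1, differed most, by -0.89 (adjusted p = 0.245).

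Gene families of no single liver function lay near the values of all genes. Of 249 zinc finger protein genes 148 lay below 0 (median -0.04) and 1.61% and 1.20% did not overlap on the high and low sides. Of 138 microRNA genes 73 lay above 0. Mir122, the abundant microRNA of hepatocytes, was dimmer in CANA without a call, at 4.27, 3.77, 3.97 and 4.43 against 6.02, 5.02, 5.20 and 5.66 (-1.36, adjusted p = 0.193), in a probe set with a mean of 4.93 over the 13 arrays. The 72 small nucleolar RNA genes had no non-overlapping member. They were high in HFD replicates 1 and 2 and in CANA replicate 1, at 0.55, -0.03, -0.27 and -0.41 in CANA and 0.47, 0.52, -0.29 and -0.54 in HFD.

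**Figure D3:**
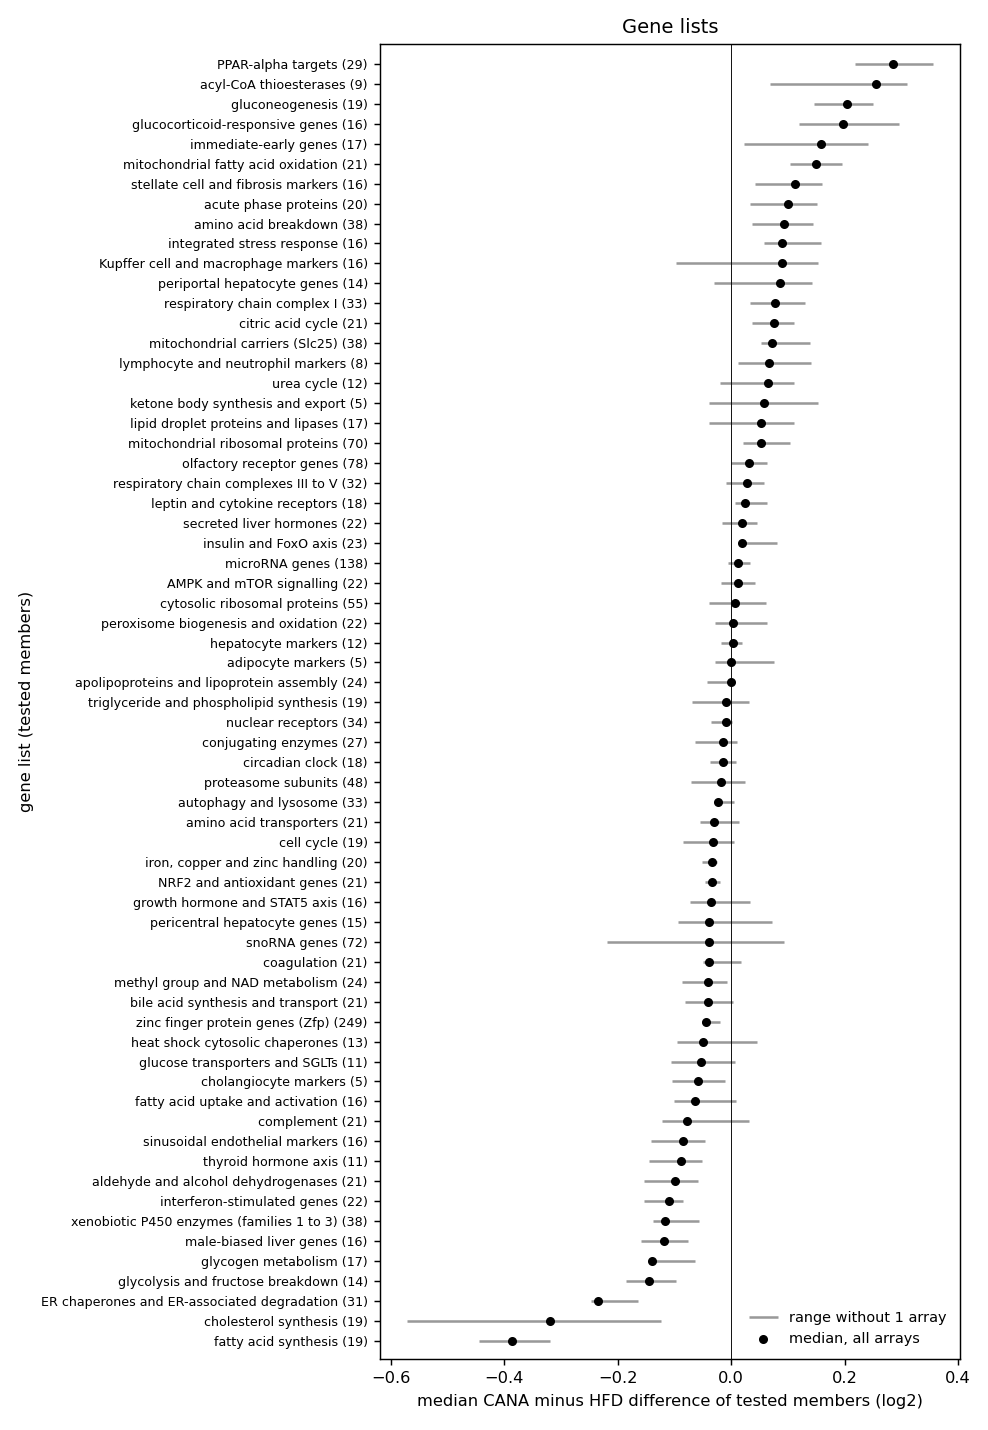
Each dot is the median CANA minus HFD difference (log2) of the tested members of 1 of 65 gene lists, with the number of members in brackets, and each bar spans the medians when 1 array at a time was left out. Fatty acid synthesis is lowest at -0.39 and PPAR-alpha targets highest at 0.29, and the bars of cholesterol synthesis and small nucleolar RNA genes are the widest among the lists.

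**Figure D4:**
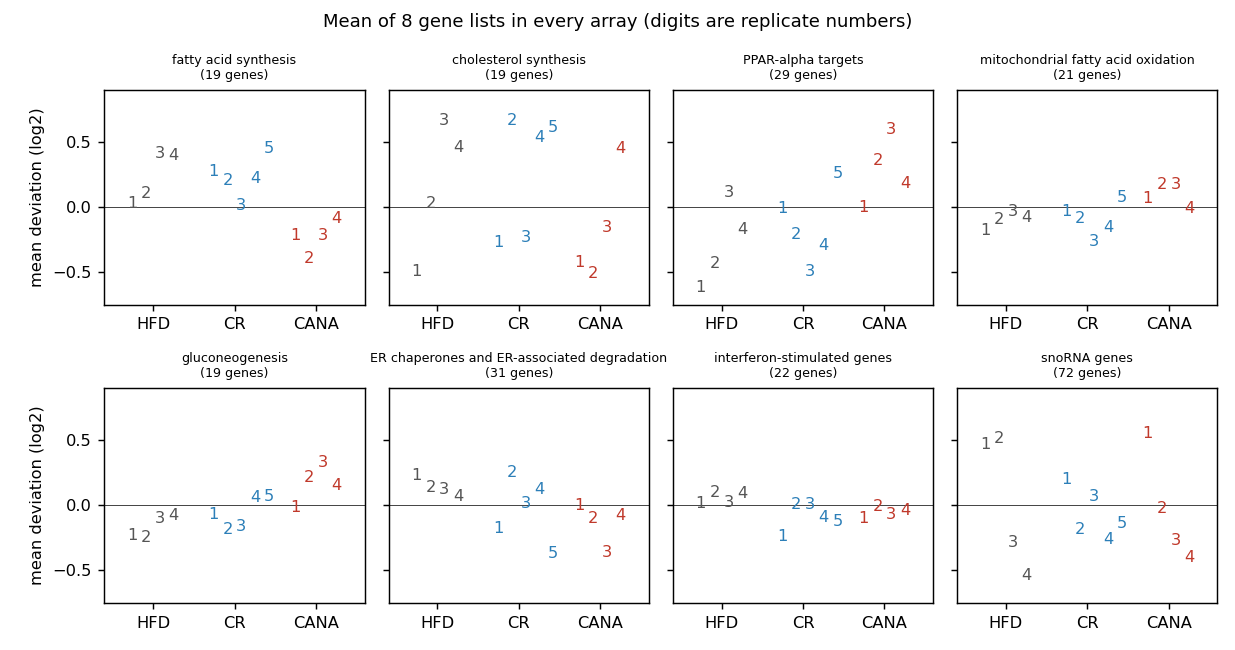
Mean deviation of 8 gene lists from the gene means (log2, y axis) in every array, drawn as the replicate number, in HFD (grey), CR (blue) and CANA (red). Fatty acid synthesis, mitochondrial fatty acid oxidation, gluconeogenesis and ER genes separate all CANA from all HFD arrays. Interferon-stimulated genes do so too, by little. Small nucleolar RNA genes are high in HFD replicates 1 and 2 and CANA replicate 1.

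In whole liver, fewer cells of a type and less RNA per cell cannot be told apart. The 12 tested hepatocyte markers had a median of 0.0025 and array means between -0.05 and 0.06. Of the 14 listed, 13 were measured and 12 of these were bright enough to be tested. Kupffer cell markers (16, median 0.09) averaged -0.21, 0.03, 0.07 and 0.20 in CANA and 0.26, 0.20, -0.47 and -0.09 in HFD. Sinusoidal endothelial markers (16, -0.09) averaged -0.10, -0.20, 0.19 and 0.01 and 0.03, -0.18, 0.18 and 0.08, and stellate cell markers (16, 0.11) 0.13, 0.17, 0.01 and -0.06 and -0.06, -0.03, -0.23 and 0.08. The groups overlapped in each of these 3 lists, none of their genes was called, and their part in the results above was not tested. Of 14 pancreas markers 11 were measured and 2 tested. Of 8 erythroid markers 1 was measured and 0 tested, so that list says nothing of blood in the samples. Slc5a2, the gene of SGLT2 itself, had a mean just above the filter and did not pass (-0.10, adjusted p = 0.893).

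Neighbours on the chromosome were compared for each called gene, using the nearest tested gene on either side. Ctcflos, a noncoding transcript on the strand opposite Ctcfl, rose from 6.34, 6.61, 6.89 and 6.35 in HFD to 7.50, 8.01, 8.27 and 7.65 in CANA (difference 1.31, SE 0.19, limma adjusted p = 0.0127). It lies between Ctcfl, the testis paralogue of CTCF, and Pck1, the PEP carboxykinase of glucose production. Both neighbours had all CANA arrays above all HFD arrays without a call. Ctcfl lay at 4.97, 5.46, 5.18 and 5.06 against 4.60, 4.93, 4.76 and 4.17 (0.55, adjusted p = 0.328), and Pck1 at 12.88, 13.05, 13.01 and 12.79 against 12.56, 12.56, 12.66 and 12.33 (0.40, adjusted p = 0.185). Slc22a5 and its neighbour Slc22a4, another organic cation transporter, lay on opposite sides of 0. Slc22a4 was at 4.94, 4.67, 4.65 and 4.71 in CANA and 5.30, 5.10, 5.12 and 5.31 in HFD, with no overlap and no call (-0.47, adjusted p = 0.113). Slc25a22 likewise had a neighbour on the other side, Pidd1, with all CANA arrays below all HFD arrays (-0.24, adjusted p = 0.472). Beside Igfbp1, Igfbp3 differed by 0.28 (unadjusted p = 0.0359, adjusted p = 0.52), or by 0.16 without CANA replicate 2.

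**Figure D5:**
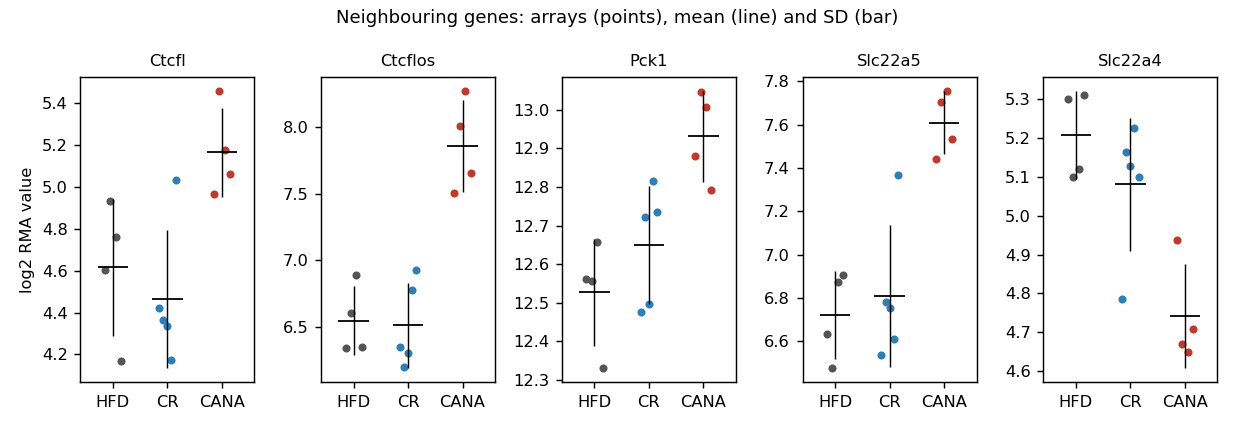
Log2 RMA values of 5 genes in every array of HFD (grey), CR (blue) and CANA (red), with the group mean (line) and SD (bar). Ctcfl, Ctcflos and Pck1 lie side by side and are higher in all CANA than in all HFD arrays, whereas Slc22a4 is lower beside a higher Slc22a5, and each y axis has its own range.

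The spread within the groups was similar over all genes. The SD was larger in CANA in 52.7% of genes, with a median of 0.164 in CANA and 0.154 in HFD. Among the called genes the SD was larger in CANA in 14 of 22, against 52.7% of all genes. Their median SD was 0.287 in CANA and 0.171 in HFD, a contrast that was not tested. The most spread genes of CANA included Bcl6, a transcriptional repressor, at 8.56, 5.40, 5.26 and 8.14 in CANA and 6.02, 7.54, 8.44 and 5.94 in HFD. Moxd1, a monooxygenase-like protein of the ER, was among the most spread in both groups, at 7.68, 8.07, 4.54 and 5.26 and 9.94, 8.04, 6.20 and 6.72. Small nucleolar RNA genes were the other recurring kind. Snord11 was at 8.74, 5.40, 6.23 and 5.92 in CANA and 8.38, 8.53, 6.25 and 5.84 in HFD, high in CANA replicate 1 and HFD replicates 1 and 2.

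Values of the CR mice stand beside these as a description, since both comparisons use the same HFD arrays. No gene was called in CR minus HFD (smallest limma adjusted p = 0.434, with 498 genes at an unadjusted p under 0.05). CR minus HFD was 0.74 for Igfbp1, 0.45 for Lepr, 0.92 for Cyp4a31, -0.27 for Fasn, 0.08 for Thrsp, -0.01 for Fh1 and 0.34 for Sik1. The CR arrays of Igfbp1 lay at 8.69, 8.63, 8.74, 10.29 and 10.54, of which 2 stood well above every HFD array. These were replicates 4 and 5, with serial numbers 11 and 14, while the lower ones carry numbers from 1 to 8. The cause of the split was not tested. The CR arrays of Lepr lay at 4.67, 4.14, 4.47, 4.71 and 5.51, with 1 array high. For the gene lists, the CR minus HFD medians were -0.04 for fatty acid synthesis, 0.07 for PPAR-alpha targets, 0.09 for gluconeogenesis and -0.16 for ER genes, against -0.01 over all genes.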

How the data were processed

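Liver RNA was measured on Affymetrix mouse gene arrays. The deposited log2 values are from RMA, run by the authors in Affymetrix Expression Console per the submitters' processing notes, which name no version. Probe sets were named through the platform annotation: 23521 had 1 gene symbol and were used, 1814 with several and 16010 with none were left out. For the 1082 of 22180 genes with several probe sets, the one with the highest mean was taken. Genes below the 40th percentile of the mean were left out, so 13308 with means of at least 3.95 were tested. Precision is limited by the number of arrays.

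All 13 arrays entered 1 limma fit (limma 3.58.1, R 4.3.3) of 3 group means and no covariate (10 residual degrees of freedom, 5.71 prior), and 2-sided p-values were adjusted by Benjamini-Hochberg. Tables were made with Python 3.11.15 and pandas 2.3.3. The fit was also run on simulated data with independent noise for each gene. Such data hold no shift shared by several arrays, so that run says nothing of how the calls stand up to one. Gene lists are described by counts and medians, with no set test. Promoters are from RefSeq (GRCm38.p6), and probe sets were matched to RefSeq names for 23328 of 23521. The deviations of same-numbered CANA and HFD arrays from their group means correlated at 0.297, 0.0246, 0.175 and 0.166. CANA replicates 1, 3 and 4 correlated best with the HFD array of the same number, and replicate 2 with HFD replicate 1. This does not settle whether the numbers are pairs. They were not taken as pairs in the main fit, and a replicate block was run as an alternative.

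The members and gene lists were chosen with earlier results of these data known. Named genes were those called, the 10 highest and 10 lowest differences at an adjusted p from 0.05 to 0.10, leading members of each list (an adjusted p under 0.10, or up to 3 with the smallest p), the 5 most spread genes of each group, neighbours of called genes with an unadjusted p under 0.05, and core genes of the drug target, glucose and lipid pathways. Not all genes that the rule takes are printed. Other settings tried were the filter, normalization, variance model, array weights, probe set rule, threshold, arrays in the fit, replicate block, serial number and each array left out in turn. The fits within serial-number sets and the search for CAAAACA were added after seeing the data.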

Additional observations from a re-analysis of the deposited data

Results flagged for a closer look

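In 15 of the 184 groups of 4 arrays formed by the named genes, 1 array stood apart from its other 3 by more than Dixon's 95% critical value allows, and chance does this in about 1 of 20 groups. In CANA replicate 1, Angptl8 (7.03, others 6.45 to 6.52), Leap2 (5.02, others 4.77 to 4.80) and Acaca (8.05, others 7.56 to 7.59) were high and Gpcpd1 (10.51, others 10.93 to 11.01) was low, each on the side of the HFD arrays. In CANA replicate 3, Cyp4a31 (8.60, others 7.57 to 7.66) and Rab30 (8.29, others 7.30 to 7.42) were high, away from the HFD arrays. In CANA replicate 4, Gm11437 was high (6.39, others 5.76 to 5.84).

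In HFD replicate 1, C4a was high (8.77, others 7.54 to 7.75), and Akr1c20 (5.87, others 6.49 to 6.60), Per3 (6.83, the others all at 7.08) and Ghr (8.97, others 9.19 to 9.22) were low. In HFD replicate 3, Aox1 was high (8.51, others 7.97 to 7.99) and Igfbp2 low (9.11, others 9.94 to 10.07). In HFD replicate 4, Cyp2c55 was high (6.27, others 5.92 to 5.97) and Shmt1 low (9.21, others 9.35 to 9.36).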

How the results depend on the processing

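The count of 22 called genes was 12 without a filter on dim genes, 14 with a filter at the 20th percentile and 39 at the 60th. It was 14 with a robust variance and trend, 40 with the serial number as a covariate, 46 with the serial-number set as a block and 56 at an adjusted p under 0.10. Within serial numbers 1 to 8 it was 2, and within 9 to 14 it was 0, in fits added after seeing the data. Leaving out 1 array gave from 3 (without CANA replicate 3) to 38 genes (without CANA replicate 1). The other settings gave 15 to 29, and with the replicate block it was 29, 21 higher and 8 lower. Under that block Ppp1r3g, Brap, Rtkn, Gm11437 and 9430037G07Rik were not called (limma adjusted p from 0.0822 to 0.0939), and the other 17 of the 22 were. CANA replicates 1, 3 and 4 correlated best with the HFD array of their own number, and replicate 2 with HFD replicate 1. The cause of these changes was not tested, except that a filter changes how many genes are tested.

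No called gene changed sign in any of the settings run. Among the other named genes, Leprot ran from -0.020 (without CANA replicate 1) to 0.13. Within serial numbers 1 to 8 Slc5a2 was at 0.16 and Bcl6 at 0.20, and within 9 to 14 Snord11 was at 0.024. With 1 array left out Bcl6 ran from -0.71 to 0.38, at 0.34 without CANA replicate 2, 0.38 without CANA replicate 3, 0.041 without HFD replicate 2 and 0.34 without HFD replicate 3. Of 65 list medians, 35 kept their sign in all 8 fits without an array. With 4 arrays a group, few differences below the spread between arrays could be called.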
